A study of Mus musculus with 12 samples.

Results

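The genes described here are 9 signals and receptors of the spermatogonial stem cell niche: Gdnf, Gfra1, Ret, Kitl, Kit, Fgf2, Csf1, Cxcl12 and Wnt5a. They were chosen by name, and the reads of every assembled transcript that carried one of these symbols and matched or extended the known gene were summed, which gave 25 transcripts and 9 of the 24516 genes in the table. Total RNA was sequenced from whole testes of 12 wild-type C57BL/6 mice, 3 each at 3 months (3M), 6 months (6M), 12 months (12M) and 18 months (18M) of age, with 1 library per mouse and no treatment. All 4 ages shared strain, genotype and tissue, and whether mice of an age came from separate litters was not stated, so p-values measure the spread between these mice. The comparison asked how the RNA of these genes changed as the testis aged.

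Spermatogonial stem cells lie against the wall of the seminiferous tubule, among the Sertoli cells that nurse them and near the peritubular myoid cells, vessels, Leydig cells and macrophages of the interstitium. Glial cell line-derived neurotrophic factor, encoded by Gdnf, binds GFRA1 and the kinase RET on undifferentiated spermatogonia and sustains their self-renewal. KIT ligand, encoded by Kitl, acts on the kinase KIT, which marks spermatogonia that have begun to differentiate and is also made by Leydig cells.

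Both genes of the KIT pair are made in alternative forms, and the stretches that tell the forms apart are shown. The transcript shares given further on divide the counts of whole transcripts between forms that differ in these stretches. In Kitl, exon 6 (GRCm38, chr10:100080857-100080940, + strand, 84 nt, within the coding sequence) encodes the main site at which the membrane-bound ligand is cut and released. The capitals mark exon 6, between 12 nt of exon 5 and 12 nt of exon 7.
Kitl exon 6: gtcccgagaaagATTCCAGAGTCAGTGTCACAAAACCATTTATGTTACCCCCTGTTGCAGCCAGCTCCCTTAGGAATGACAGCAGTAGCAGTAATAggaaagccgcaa
In Kit, exon 9 ends at either of 2 splice sites that lie 12 nt apart (GRCm38, chr5:75639147-75639158, + strand), and the capitals mark the 12 nt that only the longer form holds.
Kit longer exon 9: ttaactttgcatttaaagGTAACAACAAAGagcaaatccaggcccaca
Kit shorter exon 9: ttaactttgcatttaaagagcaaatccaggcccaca

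On the + strand of the mm10 build are Gdnf (chr15:7810048-7837580), Kitl (chr10:100015821-100100415), Kit (chr5:75574987-75656721), Fgf2 (chr3:37348653-37404830), Cxcl12 (chr6:117168535-117181368) and Wnt5a (chr14:28505473-28525515). On the − strand are Gfra1 (chr19:58232609-58455398), Ret (chr6:118151748-118197744) and Csf1 (chr3:107741048-107760469). All are protein-coding in GENCODE vM21, and in 7 of the 9 every splice site of the summed transcripts is annotated there.

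Depth was even, with 50924104 to 71803379 estimated reads per library. Library 6M-3 stood apart: it had the highest level of 10 of 12 Sertoli markers, whereas 13.9% of all genes that passed the filter on low counts were highest there. The summed Sertoli level was 1408 counts per 1000000 reads (CPM) in 6M-3 against 1083 to 1151 CPM in the other libraries. The same library had the highest summed Leydig markers, at 1345 CPM, but only 3 of the 8 Leydig markers were highest there. It also had the lowest summed spermatid markers, at 11383 CPM. Of the members, Kitl and Csf1 were highest in 6M-3. Markers of cells from outside the testis were low, as mast cell markers summed to at most 0.505 CPM, with 4 of 6 at 0 in every library, and epididymis markers to at most 2.55 CPM.

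Per length, the 9 genes spanned a wide range of levels. Mean FPKM (fragments scaled to transcript length and library size) over the 12 libraries was 3.45 ± 0.569 (SD, n = 12) for Kit, 3.31 ± 0.846 for Cxcl12, 2.89 ± 0.503 for Kitl and 2.52 ± 0.598 for Gfra1. Neighbours among these 4 were not separated, since the higher mean was higher in only 6, 8 and 7 of 12 libraries. Csf1 followed at 1.01 ± 0.262 FPKM and lay below Gfra1 in 12 of 12 libraries. Gdnf at 0.362 ± 0.0860 FPKM, Fgf2 at 0.320 ± 0.168 and Wnt5a at 0.259 ± 0.0938 overlapped one another, and Ret was lowest at 0.158 ± 0.0376. Counts behind these values ran from 4 to 24 reads per library for Fgf2 and from 874 to 1225 for Kit.

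No member passed the test for a change with age, and the 2 that came nearest, Cxcl12 and Wnt5a, were lower in older testes. In edgeR's quasi-likelihood fit of log2 level on age in months, 0 of 9 members reached an adjusted p of 0.05, where 0.41% of the 18545 genes tested did. At an unadjusted p of 0.05, 2 of 9 members were lower with age, where 9.23% of all genes were lower. DESeq2 called the same 2 members, where it called 2.5% of genes. All 9 estimated slopes lay below 0, with a median of -0.017 log2 units per month, against -0.00019 over all genes. In the plot of counts by age, Cxcl12 and Wnt5a are the panels whose 12M and 18M points all lie below the 3M and 6M points.

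**Figure D1:**
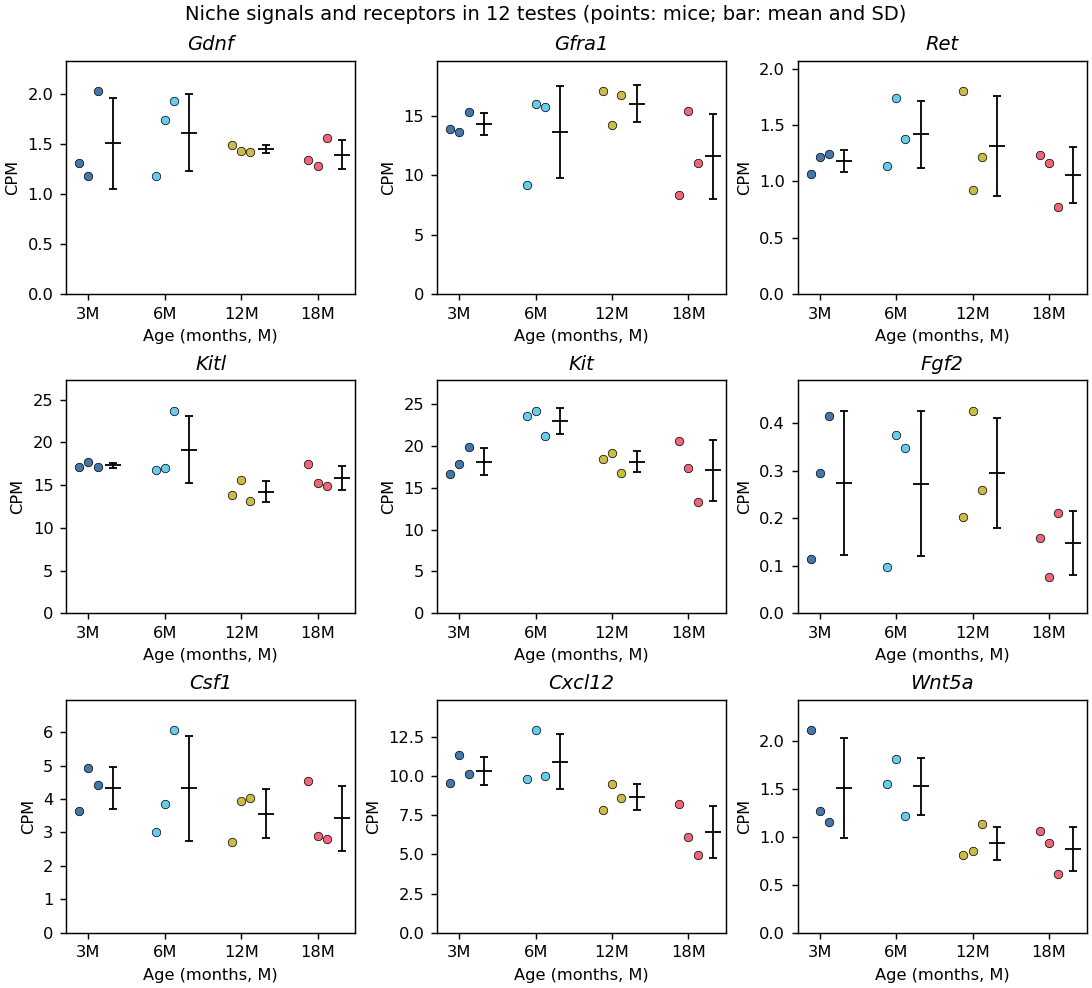
CPM of each of the 9 genes (y axis, linear, from 0) at the 4 ages (x axis). Points are mice and bars give the mean and SD of 3; Cxcl12 ran from 9.59 to 12.9 CPM at 3M and 6M and from 4.97 to 9.53 CPM at 12M and 18M.

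Cxcl12 encodes a chemokine, made by stromal and supporting cells, that holds stem cells in their niche through CXCR4. Its level was 9.59, 11.3 and 10.1 CPM in the 3M testes, 9.84, 12.9 and 10.02 CPM at 6M, 7.83, 9.53 and 8.63 CPM at 12M, and 8.22, 6.11 and 4.97 CPM at 18M. All 6 libraries of 12M and 18M lay below all 6 of 3M and 6M, and 1.29% of genes that passed the filter did so. The slope was -0.049 ± 0.011 log2 units per month (SE), with an unadjusted p of 0.00052 and an adjusted p of 0.078 by edgeR. DESeq2 gave the same slope an adjusted p of 0.00086, and edgeR without 18M-1 gave -0.059 with an adjusted p of 0.032. Without 18M-2 the edgeR slope was -0.046 (adjusted p = 0.227), and without 18M-3 it was -0.039 (adjusted p = 0.219). The 18M mean was 1.61-fold lower than the 3M mean, a log2 difference of -0.69 ± 0.18 (SE, n = 3 and 3) with adjusted p = 0.288 by edgeR and 0.0184 by DESeq2.

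Wnt5a, a ligand of the noncanonical WNT pathway made by Sertoli cells, showed the same order of ages at a lower level. It stood at 2.11, 1.27 and 1.16 CPM at 3M, 1.55, 1.81 and 1.22 CPM at 6M, 0.814, 0.853 and 1.13 CPM at 12M, and 1.06, 0.936 and 0.617 CPM at 18M. Again all 6 older libraries lay below all 6 younger ones in CPM, but narrowly, with 1.13 CPM in 12M-3 and 1.16 CPM in 3M-3. Wnt5a had 44 to 111 reads per library, and before scaling 12M-3 had 70 reads and 3M-3 had 67. The slope was -0.062 ± 0.017 log2 units per month, with an adjusted p of 0.121 by edgeR and 0.0324 by DESeq2. At 18M against 3M the log2 difference was -0.80 ± 0.30, with adjusted p = 0.335. An antisense gene, Gm2670, overlaps Wnt5a, and reads of the 2 strands could not be told apart in these libraries.

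Most Leydig cell markers also had slopes below 0. Of 8 Leydig markers, all detected, 3 passed the edgeR slope test downward (Cyp11a1 and Cyp17a1, enzymes of androgen synthesis, and Lhcgr, the luteinizing hormone receptor), and 7 of 8 slopes lay below 0. Their summed level ran from 898 to 1065 CPM at 3M, 839 to 1345 CPM at 6M, 667 to 718 CPM at 12M and 578 to 787 CPM at 18M, and the 1345 CPM came from 6M-3, above at most 1065 CPM in any other library. The summed endothelial markers ran from 34.2 to 38.7 CPM at 3M and 6M and from 30.6 to 35.8 CPM at 12M and 18M. Of 6 endothelial slopes 5 lay below 0, with a median of -0.017 log2 units per month, and 0 were called. The part of these cells in the Cxcl12 and Wnt5a values was not tested, and in whole tissue fewer cells of a type and less RNA per cell cannot be told apart.

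No gene of the GDNF group passed a test of change with age. Gdnf had 1.31, 1.18 and 2.02 CPM at 3M, 1.18, 1.74 and 1.93 CPM at 6M, 1.49, 1.43 and 1.42 CPM at 12M, and 1.34, 1.28 and 1.56 CPM at 18M, so every age overlapped every other. The kinase Ret had 1.07, 1.22 and 1.25 CPM at 3M, 1.14, 1.74 and 1.37 CPM at 6M, 1.80, 0.927 and 1.21 CPM at 12M, and 1.23, 1.17 and 0.772 CPM at 18M. Gfra1, which binds GDNF and presents it to RET, had 13.9, 13.6 and 15.3 CPM at 3M, 9.20, 16.02 and 15.7 CPM at 6M, 17.04, 14.2 and 16.8 CPM at 12M, and 8.32, 15.4 and 11.03 CPM at 18M. One mouse at 6M (6M-1) and another at 18M (18M-1) lay well below the rest of their ages for the summed Gfra1 reads. Those reads came mostly from the last exon of Gfra1, counted to its assembled end. The 18M minus 3M log2 differences were -0.11 ± 0.23 for Gdnf, -0.16 ± 0.22 for Ret and -0.30 ± 0.20 for Gfra1, with adjusted p between 0.529 and 0.856 by edgeR.

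**Figure D2:**
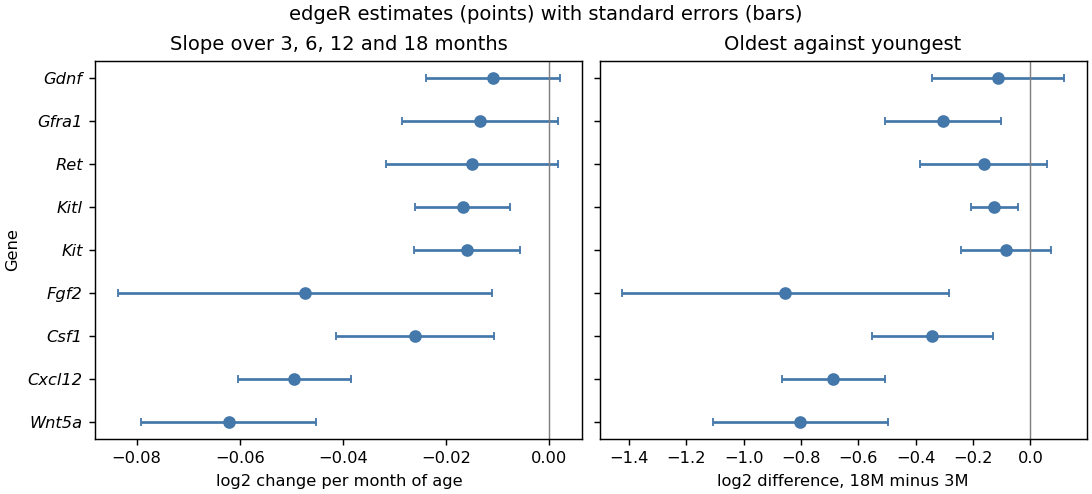
edgeR estimates for the 9 genes (y axis): log2 change per month over the 4 ages (left x axis) and log2 difference of 18M minus 3M (right x axis), with bars of 1 standard error. All points lie left of 0, and Cxcl12 at -0.049 and Wnt5a at -0.062 per month lie farthest from 0 relative to their errors.

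Neither Kit nor Kitl passed a test, and their means moved most around 6M. Kit had 16.6, 17.9 and 19.8 CPM at 3M, 23.5, 24.2 and 21.2 CPM at 6M, 18.4, 19.1 and 16.8 CPM at 12M, and 20.6, 17.3 and 13.3 CPM at 18M. The 6M testes all lay above the 3M and 12M testes, which was picked out after the values were seen. The share of all genes with that order was not counted. The log2 difference was 0.34 ± 0.090 for 6M minus 3M, and -0.35 ± 0.085 for 12M minus 6M. Neither step passed after adjustment by edgeR, with adjusted p = 0.988 and 0.513. Kitl had 17.1, 17.7 and 17.2 CPM at 3M, 16.8, 16.98 and 23.7 CPM at 6M, 13.9, 15.6 and 13.2 CPM at 12M, and 17.5, 15.3 and 14.9 CPM at 18M. Its 12M level was lower than its 6M level by a log2 difference of -0.43 ± 0.15, with adjusted p = 0.547 by edgeR. The highest of these values came from 6M-3, the library with the raised Sertoli markers and the highest Leydig sum, whose part was not tested.

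The other growth factors were scattered. Csf1, which acts on macrophages and on spermatogonia through CSF1R, had 3.65, 4.92 and 4.41 CPM at 3M, 3.03, 3.87 and 6.06 CPM at 6M, 2.71, 3.95 and 4.03 CPM at 12M, and 4.55, 2.90 and 2.81 CPM at 18M. Its slope was -0.026 ± 0.015 log2 units per month with adjusted p = 0.398 by edgeR. Fgf2, a growth factor that supports stem cells in culture, had 0.114, 0.296 and 0.415 CPM at 3M, 0.0983, 0.375 and 0.347 CPM at 6M, 0.203, 0.426 and 0.259 CPM at 12M, and 0.159, 0.0764 and 0.210 CPM at 18M. The 18M minus 3M difference was -0.86 ± 0.57 on the log2 scale (adjusted p = 0.529 by edgeR), on 4 to 24 reads per library. The Fgf2 locus is overlapped by Fgf2os and Gm42923 on the opposite strand and by Gm43439 on the same strand, and its reads could not be assigned to a strand.

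Between pairs of ages edgeR called 0 of 9 members. For 18M against 3M, 0.0662% of 18130 genes passed edgeR and 1.16% passed DESeq2, which called Cxcl12 alone among the members. At an unadjusted p of 0.05, 2 members (Cxcl12 and Wnt5a) were lower, as were 7.25% of all genes. For 6M against 3M, edgeR passed 0.0497% and DESeq2 0.312% of genes, and DESeq2 called 0 members. There 1 member (Kit) was higher at an unadjusted p of 0.05, as were 2.29% of genes. For 12M against 6M, edgeR passed 0.0551% and DESeq2 0.488% of genes, and DESeq2 called 0 members. At an unadjusted p of 0.05, 4 members (Kit, Wnt5a, Kitl and Cxcl12) were lower, as were 4.91% of genes. For 18M against 12M, edgeR passed 0.0275% and DESeq2 0.153% of genes, and DESeq2 called 0 members. Cxcl12 alone was lower at an unadjusted p of 0.05, as were 1.95% of genes, with a log2 difference of -0.43 ± 0.18. All 3 of the 18M libraries lay below all 3 of 3M for 2 of 9 members, and 10.7% of all genes did so.

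The wider niche list held 64 genes, of which 59 were tested, and 0 passed in either direction by edgeR. Of the tested genes, 40 had slopes below 0, with a median of -0.011 log2 units per month. At an unadjusted p of 0.05 there were 10 lower and 2 higher, where 9.23% of all genes were lower and 17.5% passed in either direction. These counts include the members, and of the 50 other genes 31 had slopes below 0. The 2 higher were Gfra2, a receptor of the GDNF family at 0.016 ± 0.0064, and Id4, a transcription factor of stem cells at 0.011 ± 0.0048 log2 units per month, both named after their values were seen. By list, slopes lay below 0 for 5 of 10 genes of the GDNF family, 2 of 5 GDNF-responsive transcription factors, 7 of 8 of the KIT axis, 8 of 13 of the FGF axis, 2 of 3 each of the CSF1 and CXCL12 axes and 14 of 17 of the WNT axis. Among markers of the cells that make or receive these signals, slopes lay below 0 for 5 of 9 of undifferentiated spermatogonia, 3 of 6 of differentiating spermatogonia, 7 of 12 of Sertoli cells, 5 of 6 of peritubular myoid cells and 4 of 6 of macrophages, and 0 of these were called. The receptors of the members spread around this median. Fgfr1, a receptor for FGF2, had a slope of -0.026 ± 0.0069 log2 units per month (adjusted p = 0.118 by edgeR and 0.0272 by DESeq2). Csf1r, the receptor of CSF1, had -0.037 ± 0.013 (adjusted p = 0.188 by edgeR and 0.0799 by DESeq2). Over 22 alternative fits its adjusted p ran from 0.0395, by edgeR without 18M-1, to 0.940. Ackr3, which scavenges CXCL12, had -0.022 ± 0.0071 (adjusted p = 0.169 by edgeR). Cxcr4, the signalling receptor of CXCL12, had 0.0029 ± 0.013, and Ror2, a receptor for WNT5A, had -0.0015 ± 0.0055, so that the interval of each covered 0.

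**Figure D3:**
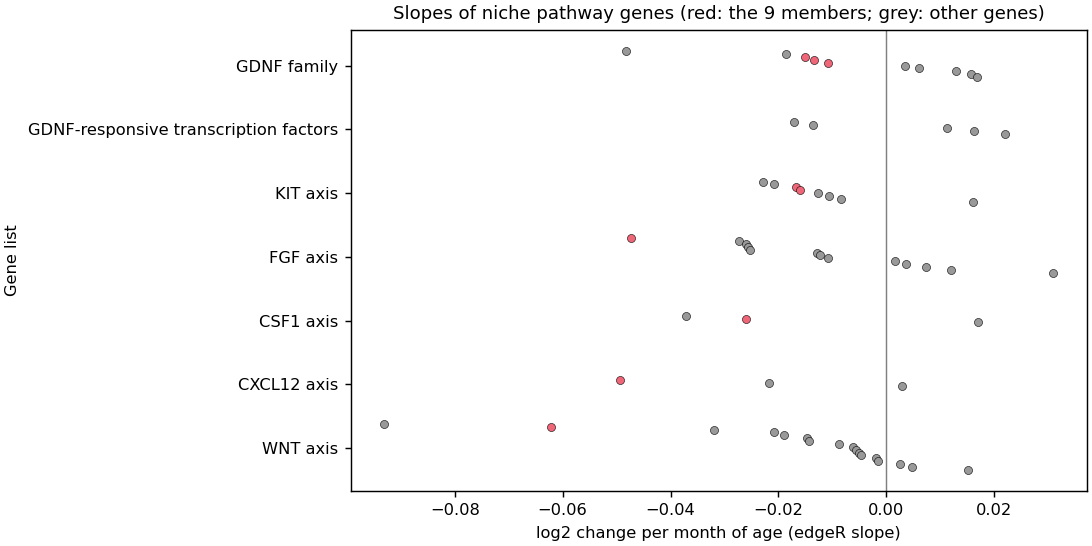
edgeR slope (x axis, log2 change per month) of each tested gene in the 7 pathway lists around the niche signals (y axis). Each point is a gene, with the 9 members in red; 40 of 59 points lie left of 0, and Cxcl12 and Wnt5a lie at -0.049 and -0.062.

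Ligand and receptor levels were compared over the 12 libraries for 8 pairs, which share library and tissue composition. The strongest was Csf1 with Csf1r, with Pearson's r = 0.732 (permutation p = 0.0073, adjusted over the 8 pairs 0.058) and Spearman's rho = 0.664 (permutation p = 0.0217, adjusted 0.171). Without 6M-3 and 12M-1, the libraries farthest from the median of Csf1, r was 0.584, and for deviations from the age means it was 0.739. Fgf2 with Fgfr1 gave r = 0.546 (permutation p = 0.0668, adjusted 0.264) and rho = 0.573. Gfra1 with Ret gave r = 0.427 (permutation p = 0.165, adjusted 0.264), and 0.817 without 6M-1 and 18M-1, the libraries farthest from the median of Gfra1. Gdnf with Gfra1 gave r = 0.435 (permutation p = 0.154, adjusted 0.264), Kitl with Kit r = 0.462 (permutation p = 0.128, adjusted 0.264), and Cxcl12 with Cxcr4 r = -0.286 (permutation p = 0.374, adjusted 0.463). Gdnf with Ret gave r = 0.265 and Wnt5a with Ror2 r = 0.217. With the 2 libraries farthest from the median of the first gene left out in the same way, r was 0.518 for Fgf2 with Fgfr1. It was 0.379 for Gdnf with Gfra1, 0.439 for Kitl with Kit and 0.010 for Cxcl12 with Cxcr4. For Gdnf with Ret it was 0.244, and for Wnt5a with Ror2 0.416. The values without 2 libraries were not tested. None of the 8 pairs passed after adjustment.

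Among 15336 other genes with a mean of at least 1 CPM, the patterns most like Cxcl12 over the 12 libraries were those of Sorl1 (Pearson's r = 0.960) and Sned1 (r = 0.953). Kitl was most like Cpe (r = 0.964) and Insl3 (r = 0.953), the Leydig hormone whose level was also highest in 6M-3. Kit was most like Mcm2 (r = 0.937) and Fat1 (r = 0.899), Gfra1 most like Zfp58 (r = 0.966), and Wnt5a most like Acad8 (r = 0.922). These are descriptions of the highest of many correlations.

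Gfra1 was read mostly from its 3′ end, and the count assigned to it rested on assembled transcripts that begin inside the gene. The 5 first RefSeq exons, which hold the annotated start codon, had a mean coverage of 0.251 ± 0.204 (SD, n = 12) per base in a library scaled to 50000000 reads. The shared coding exons before the last had 5.85 ± 1.57, and the last exon, to its RefSeq end, had 15.8 ± 4.59. Libraries 6M-1 and 18M-1, which were low in the Gfra1 sum, had 10.4 and 9.11 in the last exon. In the shared coding exons before it they had 6.38 and 6.33, and were not low. RefSeq transcripts took a mean of 1.36% of the Gfra1 counts, between 0 and 5.96%. Some assembled transcripts run past the RefSeq end of the last exon, at position 58235581, to as far as 58232609. Counted with that stretch, the last exon took a mean of 89.7% of the sequenced bases. Of the 3 assembled transcripts, 2 start in an exon on chr19:58360226-58360741 (GRCm38, − strand), and the other, with 3650 of the 9458 Gfra1 reads over all libraries, has 5 exons and starts further in, at position 58269592. Because few reads reach the first exons, the window before the annotated start is shown, with the letters CCAAT or its complement, read on either strand, in capitals.
Gfra1 promoter (GRCm38.p6, chr19:58455399-58455648, − strand, from RefSeq): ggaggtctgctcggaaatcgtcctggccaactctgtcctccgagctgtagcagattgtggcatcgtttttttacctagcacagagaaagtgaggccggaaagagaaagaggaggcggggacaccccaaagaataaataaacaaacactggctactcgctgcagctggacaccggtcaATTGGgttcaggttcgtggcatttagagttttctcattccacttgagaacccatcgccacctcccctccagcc
Cxcl12, whose slope lay farthest from 0 relative to its error among the members, has a promoter window with 5 copies of GGGCGG on either strand, in capitals, 2 of which overlap.
Cxcl12 promoter (GRCm38.p6, chr6:117168285-117168534, + strand, from RefSeq): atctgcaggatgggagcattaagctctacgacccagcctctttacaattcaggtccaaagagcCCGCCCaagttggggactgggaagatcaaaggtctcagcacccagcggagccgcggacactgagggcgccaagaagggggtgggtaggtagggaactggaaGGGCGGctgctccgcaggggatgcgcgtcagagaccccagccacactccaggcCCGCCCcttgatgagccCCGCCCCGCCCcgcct
Of the 9 windows found for 7 members, 6 held GGGCGG, 2 held TATAAA and 2 held CCAAT, on either strand. The Kit windows overlap and hold the same GGGCGG, so the 6 windows with it belong to 5 genes. Over all 32851 windows of the same 250 bases, GGGCGG was present in 32.7%, TATAAA in 12.4% and CCAAT in 33.9%. Ret and Wnt5a were not among them.

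Coverage of Kit also rose toward its 3′ end, from 3.92 in exon 1 to 28.5 in exon 21 per base on the same scale. In the testis a short form of KIT, made in spermatids from a start inside the gene, holds the exons from 17 on. The log2 ratio of exons 17 to 21 over exons 1 to 16 was 1.60, 0.936 and 1.51 at 3M, 1.29, 1.22 and 2.32 at 6M, 1.95, 1.36 and 2.12 at 12M, and 1.68, 2.14 and 2.30 at 18M. Its mean over 12M and 18M was 1.93 ± 0.349 (SD, n = 6), against 1.48 ± 0.473 (SD, n = 6) at 3M and 6M. The difference of 0.446 did not pass a two-sided exact permutation test (p = 0.0974, where the smallest p possible is 0.0022), and without 6M-3 it was 0.614 (exact permutation p = 0.0173). For the 6 spermatid markers, 0 slopes on age lay below 0, with a median of 0.015 log2 units per month, 2 at an unadjusted p of 0.05 and 0 called by edgeR. Their summed level ran from 11383 to 13769 CPM at 3M and 6M and from 12864 to 17594 CPM at 12M and 18M. Library 6M-3, with the highest Kit ratio, had the lowest sum, at 11383 CPM. The part of spermatids in the ratio was not tested. Among 2470 RefSeq mRNAs with 15 or more exons and a mean coverage of 5 to 50, the median ratio was 0.252. There each transcript was taken singly, with a like share of its exons at the 3′ end. The ratio of mean Kit coverage, summed over the Kit transcripts, was 1.65 and stood at the 96.9th percentile of this set. Coverage of Ret rose from 0.076 in exon 1 to 3.43 in exon 17, but was 0.52 in its last exon, of 3688 nt. Kitl coverage rose toward its 3′ end too, from 6.60 in exon 1 to 17.2 in exon 10.

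**Figure D4:**
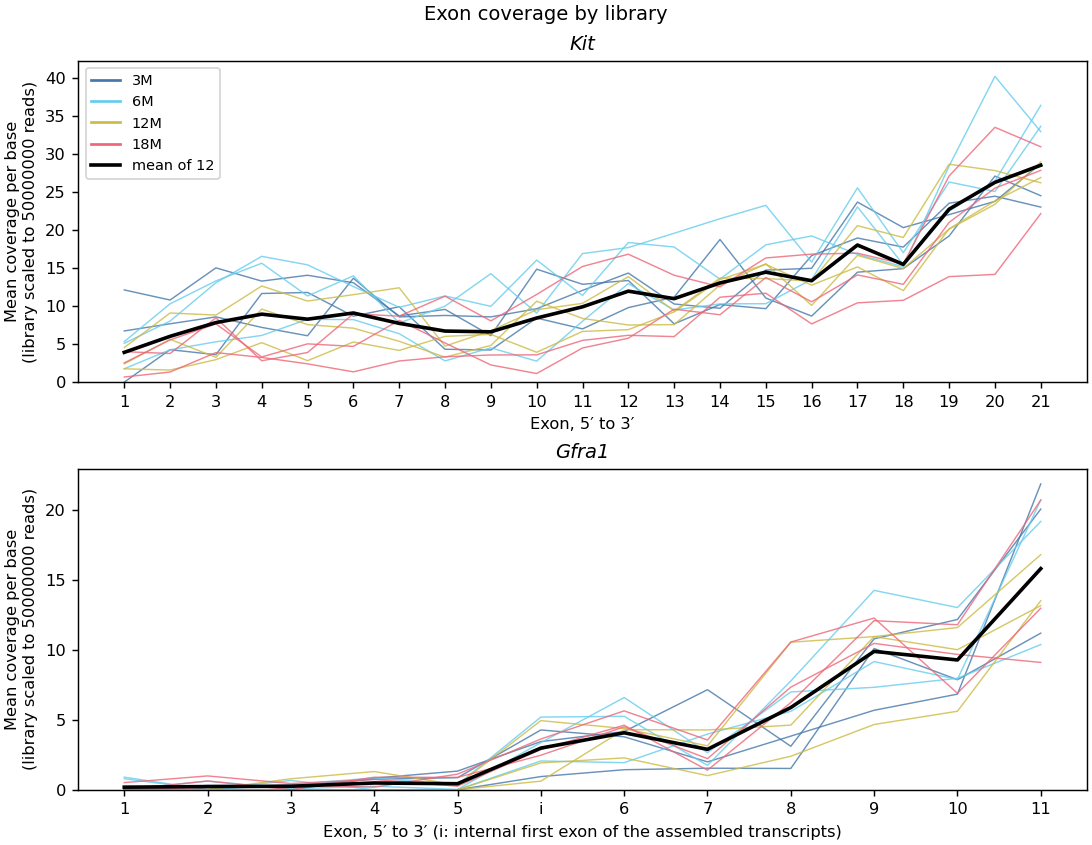
Mean coverage per base in libraries scaled to 50000000 reads (y axis), of each exon of Kit and Gfra1 from 5′ to 3′ (x axis), with 1 thin line per library coloured by age and a black line for the mean of 12. Kit rises from 3.92 in exon 1 to 28.5 in exon 21, and Gfra1 stays near 0 over exons 1 to 5 and reaches 15.8 in exon 11.

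The 3 transcripts of Cxcl12 divided its counts, and the shortest, which ends before the others, held 50, 50.8 and 52.6% of them at 3M and 48.9, 53.8 and 55.4% at 18M. Over the 12 libraries that share ranged from 48.9 to 58.1%. The 6M libraries, at 54.9, 52.6 and 58.1%, lay just above the 3M libraries and above the 12M libraries, at 50.9, 50.2 and 52.1%, and the 18M libraries overlapped all other ages.

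The forms of Kitl and Kit shown above could not be separated by age. The transcript with Kitl exon 6 took 30.0, 48.6 and 25% of the Kitl counts at 3M, 52.6, 54.1 and 0.220% at 6M, 12.2, 52.7 and 40.1% at 12M, and 38.7, 36.5 and 52.4% at 18M. The older mean of 38.8 ± 14.8% (SD, n = 6) exceeded the younger mean of 35.1 ± 20.95% (SD, n = 6) by 3.68 percentage points (two-sided exact permutation p = 0.749), and without 6M-3 the difference was -3.30 points. Exon 6 itself had 21.9% of the coverage of its flanking exons in 6M-3, where the assembler gave the transcript 0.220% of the counts. Its coverage was 15.5% of the flanking exons in 6M-2 and 73.6% in 12M-3, against 54.1 and 40.1% of the counts. In 18M-2 the values were close, at 36.3% by coverage and 36.5% by counts. The transcript with the longer Kit exon 9 took 27.1, 2.63 and 69.0% of the Kit counts at 3M, 28.4, 32.4 and 0% at 6M, 65.96, 0.388 and 77.6% at 12M, and 1.03, 53.6 and 30.2% at 18M, so every age overlapped every other. These shares are the assembler's division of counts between nearly identical transcripts. Coverage of the stretch that tells the Kit forms apart was not measured, so the shares do not measure splicing in a mouse.

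**Figure D5:**
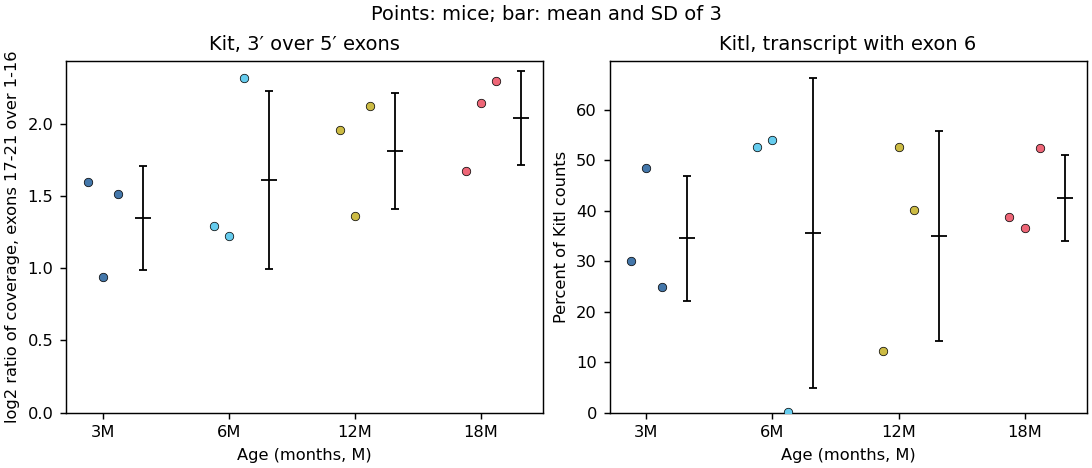
Left, log2 ratio of coverage of Kit exons 17 to 21 over exons 1 to 16 (y axis) and right, percent of Kitl counts in the transcript with exon 6 (y axis), each by age (x axis). Points are mice and bars the mean and SD of 3; 6M-3 is the highest Kit point at 2.32 and the lowest Kitl point at 0.220%.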

How the data were processed

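Ribosomal RNA-depleted, paired-end libraries were aligned by the authors with HISAT2 to mm10 and assembled with StringTie 1.3.3b, per the file headers, which show no strand option. The deposited table holds estimated counts and FPKM for 71967 transcripts, and the deposited assemblies hold the coverage of each exon. The counts were whole numbers that equalled coverage times length over a read length of 101 nt, rounded up, in 98.9% of 706790 values and within 1 read in all others.

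Counts of transcripts with a gene symbol and GffCompare class =, c, j or o were summed to 24516 genes. The 9 members, the pathway and marker lists and the tests were chosen with earlier results of these data known. Library size was the total of all deposited transcripts. Genes were filtered with filterByExpr, scaled by TMM and tested with edgeR 4.0.16's quasi-likelihood test with Benjamini-Hochberg adjustment at 0.05, as a slope over all 12 libraries and between pairs of ages. DESeq2 1.42.0, and limma 3.58.1 on log2(FPKM + 0.1) and log2(FPKM + 1), were alternatives. Single ratios were compared with exact permutation tests and correlations with 100000 permutations. On simulated counts, edgeR recovered 78.5% of 200 genes with a 2-fold change over the age range in the slope test and 70.0% in 18M against 3M. False calls numbered 9 and 11. The changed genes were drawn from all genes that passed the filter, not at the depth of the members, and changes below 2-fold were not simulated. The genes named were all members, listed genes called, 5 direct receptors, and the genes most like each member with a mean of at least 1 CPM. Gfra2 and Id4 were named outside this rule, after their values were seen. Intervals cover the spread among these 12 mice, and 50924104 to 71803379 reads per library set the precision. The older-against-younger fit, Kit exons 17 to 20, Kitl exon 6 coverage and the Gfra1 coding exons were alternatives chosen after seeing the data.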

Additional observations from a re-analysis of the deposited data

Results flagged for a closer look

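One signal lay outside the counts used for the members. Transcripts on the opposite strand at the 3′ end of Gfra1, which carry its symbol but match the other strand, had a mean of 10.4 CPM over the 12 libraries (9.56 to 11.5 CPM, 515 to 687 reads), against 13.9 CPM for Gfra1 itself. They overlap the annotated antisense gene Gm16277 and span the assembled stretch past the RefSeq end of the Gfra1 last exon. Without strand, their reads and those of the last exon with that stretch cannot be told apart.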

How the results depend on the processing

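The edgeR slope called 0 members, DESeq2 called 2 (Cxcl12 and Wnt5a), and an unadjusted p called 2. Leaving out 1 library gave 0 to 1 members (Cxcl12 without 18M-1). For 18M against 3M, DESeq2 called 1 member (Cxcl12) and an unadjusted p 2. An unadjusted p called 1 member in 6M against 3M, 4 in 12M against 6M and 1 in 18M against 12M. Over all genes, the slope called 76. It called 47 without a filter, 568 by DESeq2, 40 and 41 on FPKM plus 0.1 and plus 1, 11 with class = only, 184 as older against younger, 3244 unadjusted, and 18 to 192 without 1 library. For 18M against 3M the count of 12 became 256 by DESeq2, 19 with class = only, 22 with all 12 libraries and 2452 unadjusted, and 14 to 25 without 1 library. For 6M against 3M the 9 became 69 by DESeq2, 5 on either FPKM scale, 0 with class = only, 3 with all 12 libraries and 725 unadjusted, and 11 to 30 without 1 library. For 12M against 6M the 10 became 108 by DESeq2, 3 with all 12 libraries and 1539 unadjusted, and 5 to 21 without 1 library. For 18M against 12M the 5 became 34 by DESeq2, 0 with all 12 libraries and 632 unadjusted, and 5 to 19 without 1 library.

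Mice that share a replicate number were not paired: deviations of same-numbered libraries correlated at -0.0536 to 0.156. A replicate block called 42 genes in the slope, 7 in 18M against 3M and 3 in 12M against 6M, and 0 members. The Gfra1 slope became 0.15 with class = only, 0.026 over its RefSeq exons before the last, and -0.022 to 0.00073 without 1 library (above 0 without 18M-1). The difference of 18M minus 3M ran from -0.26 to 0.16 for Gdnf (above 0 without 3M-3), from -0.29 to 0.028 for Ret and from -0.24 to 0.066 for Kit (both above 0 without 18M-3). The slope of Cxcr4 ran from -0.0069 to 0.0083 (below 0 without 3M-3, 6M-1 or 18M-3) and that of Ror2 from -0.0053 to 0.0012 (above 0 without 3M-2 or 12M-1). Without 1 library the Kit ratio difference ran from 0.338 to 0.614 (p = 0.0173 by exact permutation without 6M-3), and the Kitl difference from -3.30 to 8.99 points. The cause was not tested. Fgf2, at 4 to 24 reads per library, had the least depth.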
